A study of Mus musculus with 12 samples.

Results

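Transcripts of the matrix metalloproteases (MMPs), of their tissue inhibitors (TIMPs) and of the related ADAMTS proteases were read in bulk RNA sequencing of mouse regulatory T cells (Treg cells, the Foxp3-dependent suppressor subset of CD4 T cells). The members are all gene rows of the deposited count table named Mmp with a number (with or without a or b), Timp1, Timp2, Timp3, Timp4 or Adamts with a number, a rule on symbols alone. These are 46 of 55413 genes: 23 Mmp, 4 Timp and 19 Adamts genes. A group mean of at least 1 CPM (counts scaled to the total count of the library) in any group was reached by 30 of the 46 (16 Mmp, 3 Timp and 11 Adamts genes). In lymph node Treg 8 members reached that level, in tumor pTreg 26 and in tumor tTreg 29. A filter on low counts left 34 members for testing. A gene that passes it only through groups where it is high is favoured to differ from the other groups. This holds against lymph node Treg and between the tumor groups.

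MMPs are zinc proteases made as inactive precursors. Together they cut most proteins of the extracellular matrix, and they are grouped by substrate and build into collagenases, gelatinases, stromelysins, a metalloelastase, matrilysins and membrane-bound forms. TIMPs bind and block their active site. ADAMTS proteases are secreted and cut proteoglycans, procollagens or other matrix proteins, and some assist the assembly of fibrillin microfibrils. In tumors MMPs are known mainly as products of macrophages, neutrophils, fibroblasts and the tumor cells themselves.

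The cells came from a transfer model. TCRbd-/- mice, hosts without T cells of their own, received thymic Treg cells (tTreg) of CD45.1 Foxp3YFP-cre donors, taken from spleen and lymph nodes, together with Foxp3- CD4+ cells and CD8+ cells of CD45.2 Foxp3YFP-cre donors, in parts of 1, 10 and 8. Hepa1-6 cells, a mouse hepatoma line, were inoculated 3 days later, and on day 18 tumor-infiltrating Treg cells were sorted as tumor pTreg (converted from conventional T cells, n = 3) and tumor tTreg (n = 5). Total Treg cells from lymph nodes (LN) of tumor-free mice were the control (LN Treg, n = 4), and their genotype label is the same as that of the tumor libraries, Foxp3YFP-cre and TCRbd-/- mice. In the donors YFP and Cre are driven by Foxp3. Ages, and whether mice were pooled, are not given in the sources used here. The labels do not say that libraries came from separate animals, so the p-values describe variation among libraries, which could be technical only.

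Depth was 14573864 to 17323894 counts in LN Treg, 17964262 to 18180959 for tumor pTreg and 18107272 to 18510923 for tumor tTreg. The tumor libraries went against their cell type label in part. All 18 pan-T genes (CD3 chains, T cell receptor constant regions, Lck and the like) had counts in every group, but they summed to 6612 to 6787 CPM in LN Treg, 1605 to 1647 for tumor pTreg and 151 to 161 for tumor tTreg. The sum of Foxp3, Il2ra, Ikzf2 and Ctla4 was 2393 to 2490.1, 251 to 259.8 and 73.3 to 76.5 CPM in the same order. The 14 macrophage and monocyte markers summed to 52.8 to 60.7 CPM in LN Treg, 10571 to 10637 for tumor pTreg and 10338 to 10916 for tumor tTreg. The 10 markers of Hepa1-6 cells or hepatocytes summed to 7.38 to 9.53, 5436 to 5814 and 8031 to 8384 CPM. The 10 fibroblast markers summed to 2.29 to 4.73, 143 to 164 and 691 to 819 CPM. In LN Treg the markers Apoa2, Gpc3 and Fgb (hepatocyte) and Col3a1, Lum and Pdgfra (fibroblast) had 0 counts. Apoa2, Apoa1 and Ttr were near the floor in the tumor groups as well (group means of 0.0553 to 0.23 CPM). Most of the hepatocyte sum came from Alb (2169 CPM for tumor pTreg and 3112 for tumor tTreg) and Trf (2095 and 3058). The 8 neutrophil markers summed to 2.14 to 2.44, 41.2 to 43.5 and 38.7 to 42.8 CPM, with Ly6g and Mpo at 0 in LN Treg. Csf3r alone gave 31.5 CPM of that sum for tumor pTreg and 29.7 for tumor tTreg, where Ly6g and Mpo read 0.12 to 0.276. Cxcr2 read 0.826, 0.627 and 0.48 CPM in the same order of groups. Of the 5 tested neutrophil genes 4 were higher and 0 lower in each tumor group than in LN Treg. The 8 endothelial markers summed to 189 to 194, 56.8 to 65.5 and 38.5 to 43.6 CPM, with Tek, Emcn and Tie1 at 0 in LN Treg. Pecam1 alone gave 189 CPM of the endothelial sum in LN Treg, and of the 7 tested endothelial genes 6 were higher and 1 lower in each tumor group than in LN Treg. In bulk samples a lower level from fewer cells of a type and from less RNA per cell cannot be told apart. Levels are therefore given in CPM of the library and, where the direction differs, per 100 pan-T counts. For genes that other cells express too, the second scale is no measure of their level in T cells.

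The metalloprotease transcripts of the tumor libraries came from few genes. The 23 Mmp genes summed to 25.3 ± 0.857 CPM in LN Treg (SD, n = 4), 1875 ± 28.4 for tumor pTreg (n = 3) and 2173 ± 38.0 for tumor tTreg (n = 5). Per transcript length, in FPKM (fragments normalised to transcript length and library depth), Mmp13, Mmp12, Mmp9 and Mmp14 made up 91.6 ± 0.0922% of the Mmp sum for tumor pTreg and 90.5 ± 0.0371% for tumor tTreg, against 42.7 ± 7.53% in LN Treg. The order by FPKM in tumor pTreg was Mmp13 (307 ± 13.3), Mmp12 (229 ± 0.987), Mmp9 (145 ± 2.89), Timp2 (112 ± 3.28) and Mmp14 (104 ± 6.04), with no overlap between neighbours. In tumor tTreg it was Mmp13 (378 ± 12.5), Mmp12 (239 ± 6.43), Timp2 (144 ± 5.14), Mmp9 (143 ± 6.07) and Mmp14 (132 ± 4.15), and the ranges of Timp2 and Mmp9, and of Mmp9 and Mmp14, overlapped. In LN Treg the order was Adamts10 (65.0 ± 3.15), Adamts6 (33.7 ± 1.07), Timp2 (19.4 ± 2.69), Mmp11 (4.67 ± 0.531) and Mmp14 (4.53 ± 0.866), where the last neighbours overlapped. Mmp13 ranked 314th of 55413 genes by FPKM for tumor pTreg and 268th for tumor tTreg.

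**Figure D1:**
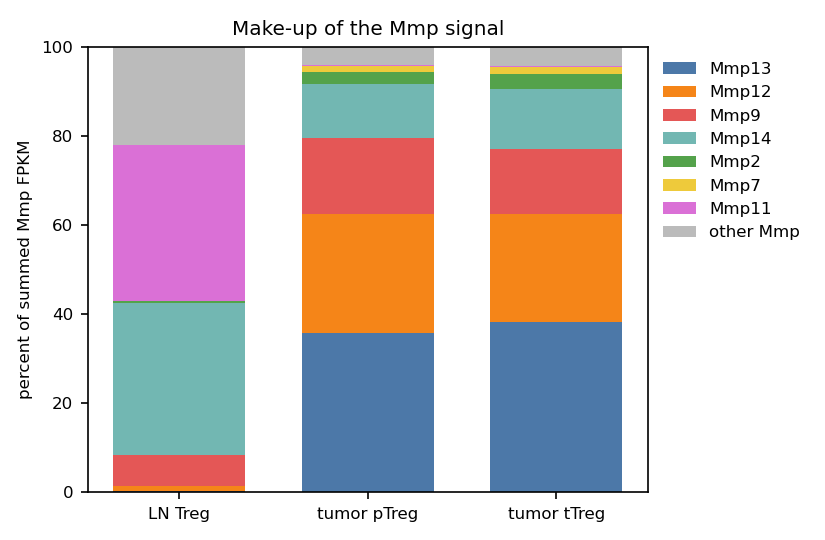
Stacked bars give the percent of the summed Mmp FPKM (y axis) held by single Mmp genes in each group (x axis, means of 4, 3 and 5 libraries). Mmp13 holds 35.8% for tumor pTreg and 38.3% for tumor tTreg, and Mmp11 and Mmp14 together hold most of the LN Treg bar.

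The inhibitors did not keep the same proportion to the proteases in the 3 groups. The 4 Timp genes summed to 49.7 ± 1.67 CPM in LN Treg, 361 ± 4.98 for tumor pTreg and 436 ± 9.07 for tumor tTreg. The ratio of the Timp sum to the Mmp sum by FPKM was 1.48 ± 0.121 in LN Treg, 0.161 ± 0.00642 for tumor pTreg and 0.18 ± 0.00558 for tumor tTreg, a ratio that does not depend on how libraries are scaled. The 19 Adamts genes were highest in LN Treg by CPM, at 402 ± 7.69 in LN Treg, 168 ± 7.33 for tumor pTreg and 196 ± 7.88 for tumor tTreg. Per 100 pan-T counts the Adamts sum was lowest in LN Treg, at 6.01 ± 0.127 in LN Treg, 10.3 ± 0.373 with tumor pTreg and 126 ± 7.75 with tumor tTreg. For each of these sums the ranges of the 3 groups did not overlap.

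**Figure D2:**
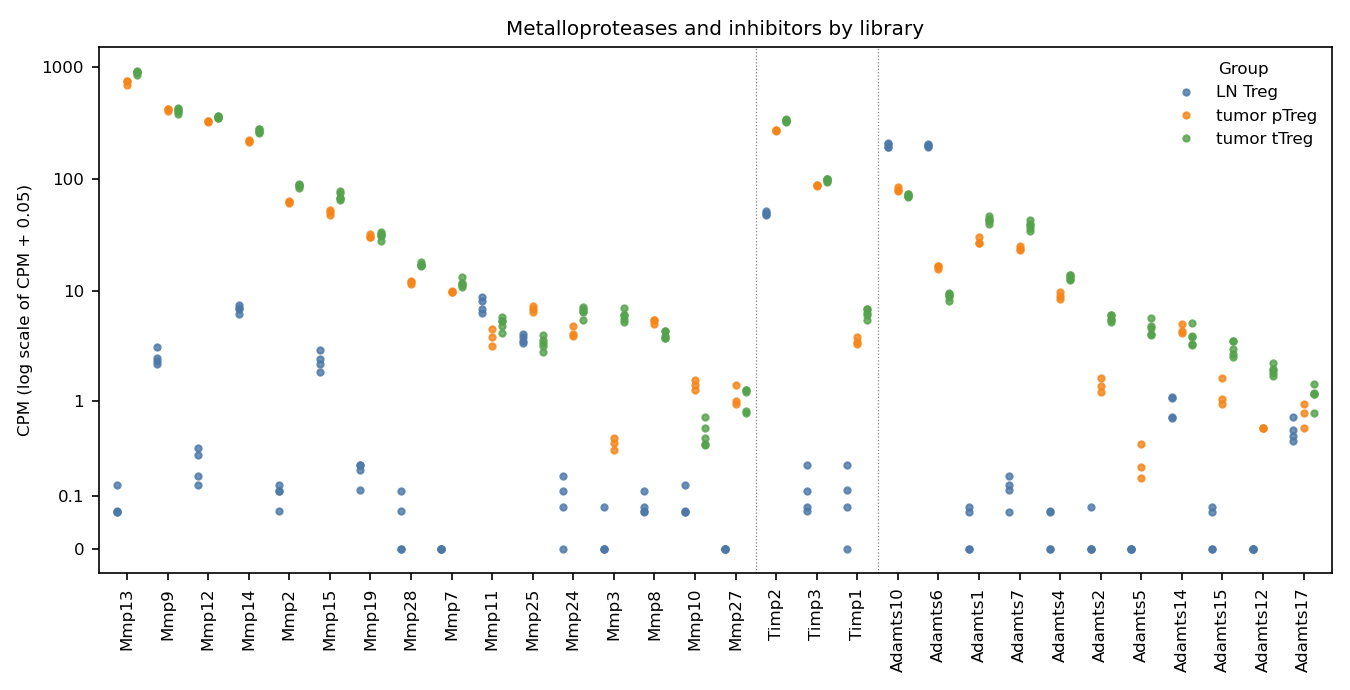
CPM (y axis, log scale of CPM + 0.05) of the 30 members with at least 1 CPM in any group, 1 point per library, coloured by group. Most Mmp and Timp genes are near 0 in the 4 LN Treg libraries and high in both tumor groups, whereas Adamts6 and Adamts10 are highest in LN Treg.

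Of the 23 Mmp genes 10 lie in a row on chromosome 9 from 7272514 to 7699585 (GRCm38, 427.1 kb), with 0 other protein-coding genes wholly inside. They are Mmp13, Mmp12, Mmp1b, Mmp3, Mmp1a, Mmp10, Mmp8, Mmp27, Mmp20 and Mmp7 in chromosome order, and the annotation lists Mmp1a as a polymorphic pseudogene. Levels of neighbours were far apart. In tumor tTreg Mmp13 read 378 ± 12.5 FPKM and Mmp12 239 ± 6.43, then Mmp7 15.6 ± 1.3, Mmp3 4.01 ± 0.448, Mmp8 1.91 ± 0.145, Mmp27 0.74 ± 0.174 and Mmp10 0.35 ± 0.0962. Mmp1b and Mmp20 had 0 counts in all 12 libraries, which allows up to 0.0454 CPM over the LN Treg group, 0.0553 over tumor pTreg and 0.0328 over tumor tTreg (3 counts over the group, counting error only), and Mmp1a had 1 count in all. Mmp1b overlaps Mmp12 on the other strand, and no source used here states whether reads were counted by strand.

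The start regions of this cluster hold the AP-1 motif, the sequence bound by Jun and Fos proteins and known from collagenase promoters. TGANTCA, which reads the same on both strands, was found within 250 bases upstream of a RefSeq start in 8 of the 10 genes (80.0%), in 8 of 32 members with a promoter in the table (25%) and in 7.82% of 27025 genes. The TATA motif TATAAA, searched on both strands and unable to share bases with TGANTCA, was found in 7 of the 10 (70.0%), in 28.1% of the 32 members and in 14.3% of all. To show how alike these regions are, 120 bases upstream of the start of the highest cluster genes, of the genes that differed most between the tumor groups, of Mmp1b, which had no count, and of Mmp8, which lacks both motifs, are printed here. For Mmp12 the window lies before the second of its RefSeq starts, inside the longer transcript's intron. The 120 bases before the first Mmp12 start and before another Mmp7 start, not printed here, hold neither motif. Sequences are from RefSeq (GRCm38.p6), 5′ to 3′ on the strand of the gene, with TGANTCA and TATAAA in capitals.

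Mmp13 (chr9:7272394-7272513, plus strand): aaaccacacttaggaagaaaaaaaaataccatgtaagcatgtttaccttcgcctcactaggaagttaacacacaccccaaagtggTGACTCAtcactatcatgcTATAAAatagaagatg

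Mmp12 (chr9:7347254-7347373, plus strand): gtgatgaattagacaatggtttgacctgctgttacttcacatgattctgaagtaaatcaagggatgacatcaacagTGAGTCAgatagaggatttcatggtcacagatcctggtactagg

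Mmp7 (chr9:7691970-7692089, plus strand): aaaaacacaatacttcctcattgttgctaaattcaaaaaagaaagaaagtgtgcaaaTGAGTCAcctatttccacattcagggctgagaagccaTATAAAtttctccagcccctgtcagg

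Mmp3 (chr9:7445702-7445821, plus strand): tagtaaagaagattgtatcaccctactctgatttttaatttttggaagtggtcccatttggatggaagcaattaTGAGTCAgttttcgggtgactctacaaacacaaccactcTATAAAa

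Mmp10 (chr9:7502222-7502341, plus strand): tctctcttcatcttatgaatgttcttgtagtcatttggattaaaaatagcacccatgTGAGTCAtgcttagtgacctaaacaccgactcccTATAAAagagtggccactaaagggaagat

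Mmp1b (chr9:7388027-7388146, minus strand): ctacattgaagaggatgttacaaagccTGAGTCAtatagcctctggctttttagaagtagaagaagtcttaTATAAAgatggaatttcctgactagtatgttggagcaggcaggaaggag

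Mmp8 (chr9:7558309-7558428, plus strand): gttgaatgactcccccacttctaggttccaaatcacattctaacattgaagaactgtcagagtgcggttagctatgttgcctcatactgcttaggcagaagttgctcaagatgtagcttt

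The windows of Mmp3 and Mmp10, whose levels moved in opposite directions between the tumor groups by CPM (per pan-T count both are lower in tumor pTreg), both hold TGAGTCA and TATAAA. So does that of Mmp1b, at 0 counts. Mmp8 and Mmp27 were the cluster genes without TGANTCA within 250 bases. A match is a description of the letters and not a binding site.

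**Figure D3:**
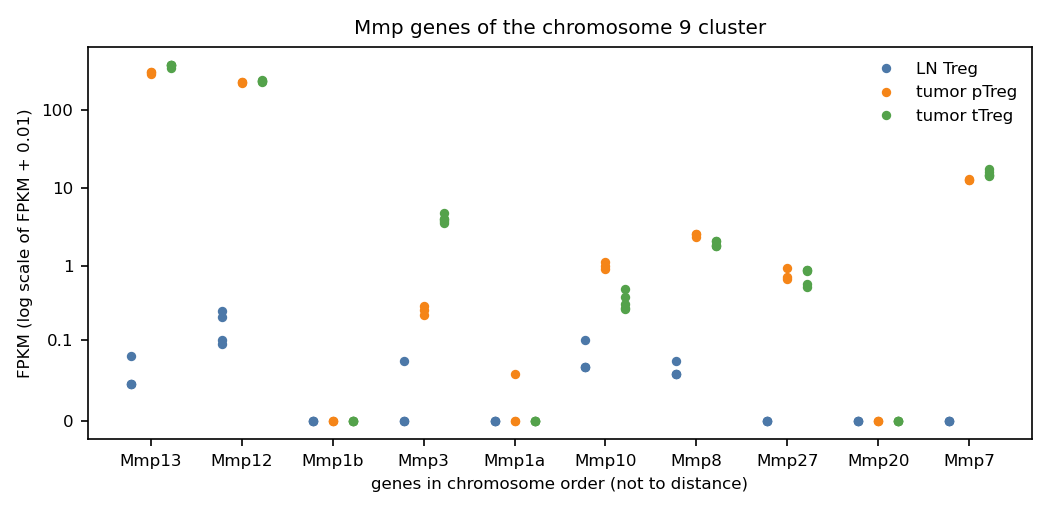
FPKM (y axis, log scale of FPKM + 0.01) of the 10 Mmp genes of the chromosome 9 cluster in chromosome order (x axis, not to distance), 1 point per library and coloured by group. Mmp13 and Mmp12 lie between 228 and 386 FPKM in all tumor libraries, and Mmp1b and Mmp20 are at 0 in all.

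How do converted and thymic Treg libraries from the same kind of tumor differ in these genes? Most members that changed were lower in tumor pTreg, and the furthest apart were Adamts5 and Mmp3. Both passed the filter through tumor tTreg alone (426 and 547 counts, against 14 and 21 over tumor pTreg). Mmp10 passed it through tumor pTreg alone (76 counts, against 45 over tumor tTreg). For such genes the filter favours a difference between the tumor groups. In the edgeR quasi-likelihood test 5 of 34 tested members were higher in tumor pTreg (14.7%, against 26.8% of 15705 genes), 21 were lower (61.8% against 25.3%) and 8 were not called. The members' median log2 fold change was -0.29, that of all genes -0.0080. Among the families 3 Mmp genes were higher and 11 lower of 18, all 3 tested Timp genes were lower, and 2 Adamts genes were higher and 7 lower of 13. Of the 26 called members 25 had no overlap between the groups (Mmp11 did). Of all genes 52.1% were called, which is a share of calls and not of genes without overlap. With libraries scaled to pan-T counts, which moves the median of all genes to -3.4, 0 members were higher and all 34 were lower (0.509% and 97.2% of all genes, 97.7% called), so every member described here as higher in tumor pTreg by CPM is lower on that scale.

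**Figure D4:**
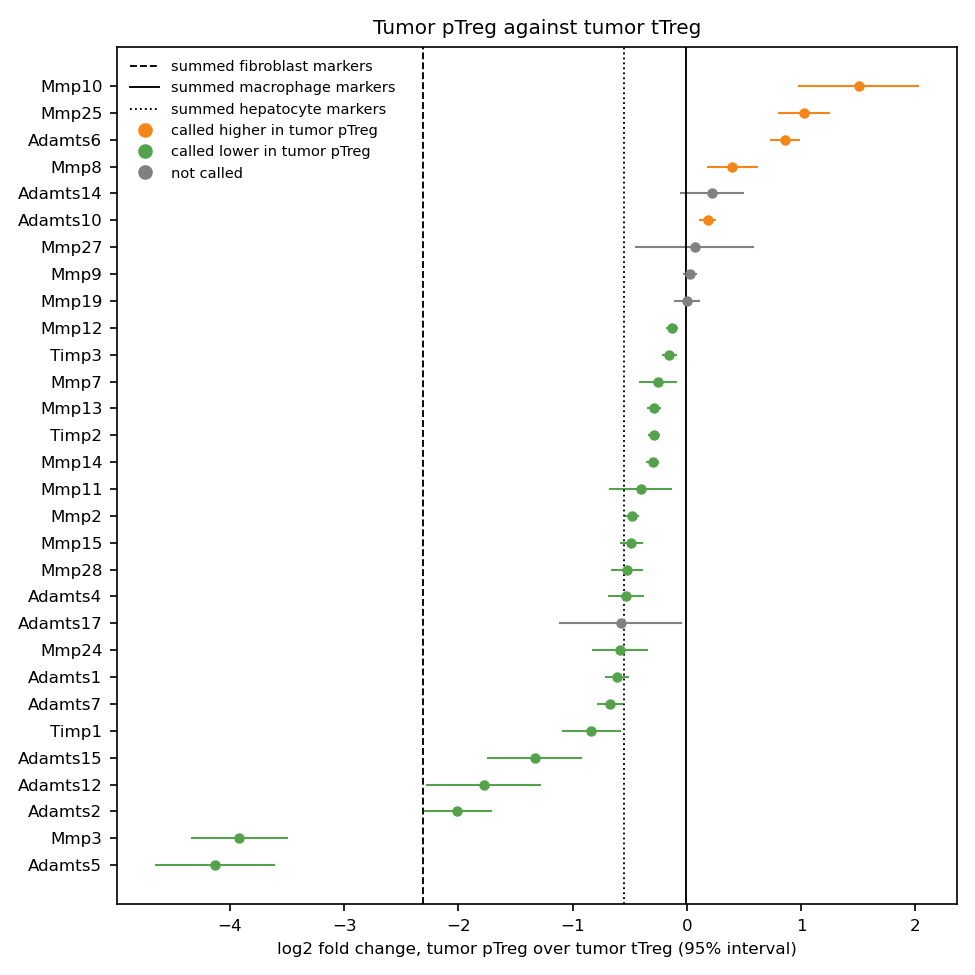
Log2 fold change of tumor pTreg over tumor tTreg (x axis, points, with 95% intervals as bars) for the 30 members with at least 1 CPM in any group (y axis), coloured by call. The intervals were computed back from the F statistic and can be too narrow for genes with few counts. Vertical lines give the log2 ratio of the summed markers of 3 other cell types; Adamts5 and Mmp3 lie left of the fibroblast line, and the 5 members called higher lie right of 0 by CPM, though all are lower per pan-T count.

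Collagenases cut fibrillar collagen, and Mmp13, the main interstitial collagenase of mice, was the leading member. It read 693, 751 and 743 CPM in the 3 tumor pTreg libraries and 919, 906, 839, 908 and 898 in the 5 tumor tTreg libraries. All tumor tTreg values were above all tumor pTreg values, replicate 3 being the lowest of its group, and the log2 fold change was -0.29 (standard error 0.032, adjusted p = 1.32e-08). Mmp8, the collagenase best known from neutrophils, read 5.29 ± 0.245 CPM against 4.03 ± 0.289 and was 1.31-fold higher in tumor pTreg (adjusted p = 0.00433) but lower per pan-T count (-2.99). With DESeq2 it was not called (adjusted p = 0.0597), and the neutrophil marker sum, mostly Csf3r, was 1.02-fold that of tumor tTreg.

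The gelatinases cut denatured and basement membrane collagen. Mmp9 (gelatinase B) read 419, 424 and 401 CPM for tumor pTreg and 419, 406, 428, 382 and 405 for tumor tTreg. The groups overlapped and the difference was not called (log2 fold change 0.03, 95% interval -0.03 to 0.09, adjusted p = 0.454). Mmp2 (gelatinase A), a stromal protease, read 62.2, 63.7 and 60.8 against 89.8, 88.0, 88.7, 86.7 and 83.5 CPM. Here every tumor tTreg library was higher, by 1.40-fold (log2 fold change -0.48, adjusted p = 1.45e-12). Mmp12, the metalloelastase of macrophages, was 1.10-fold lower at 325 ± 1.71 against 358 ± 9.12 CPM (log2 fold change -0.13, adjusted p = 0.000341), and it was not called on the FPKM table (adjusted p = 0.324 by limma-trend on log2 of FPKM + 1). The summed macrophage markers were 0.994 of the tumor tTreg level, with 1 of 14 higher and 4 lower. Their part in these values was not tested.

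Stromelysins have broad substrates and activate other MMPs, and they showed the widest split. Mmp3 (stromelysin 1), known from fibroblasts, read 0.44, 0.39 and 0.332 CPM for tumor pTreg and 6.02, 5.63, 5.24, 6.02 and 7.01 for tumor tTreg. No tumor pTreg library came near the tumor tTreg range, and the level was 15.5-fold lower (log2 fold change -3.92, adjusted p = 4.56e-15). Its neighbour Mmp10 (stromelysin 2) read 1.27, 1.39 and 1.55 against 0.712, 0.437, 0.378, 0.548 and 0.387 CPM, so it was 2.85-fold higher in tumor pTreg without overlap (1.5, adjusted p = 2.84e-05) but lower per pan-T count (-1.87). These levels rest on 21 counts of Mmp3 over tumor pTreg and 45 counts of Mmp10 over tumor tTreg. Mmp11 (stromelysin 3) was lower in tumor pTreg (3.86 ± 0.688 against 5.13 ± 0.619 CPM, -0.40, adjusted p = 0.0183), a call lost without tumor pTreg replicate 1 (adjusted p = 0.138) or replicate 3 (0.0501).

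Beside these stand the fibroblast markers, whose sum was 4.95-fold higher in tumor tTreg. Of the 10, Col1a1, Col1a2, Col3a1, Dcn, Lum, Pdgfra, Fap, Postn and Dpt were lower in tumor pTreg and Pdgfrb was higher. Pdgfra, a defining fibroblast receptor, read 0.571 ± 0.269 CPM against 4.09 ± 0.525. The part of fibroblast transcripts in the differences of Mmp3, Mmp2 and the Adamts genes was not tested. The hepatocyte marker sum was 1.47-fold higher in tumor tTreg, and its part in the smaller differences of Mmp13, Mmp14 and the Timp genes was not tested.

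Matrilysin (Mmp7), a small epithelial protease, read 9.79 ± 0.144 CPM for tumor pTreg and 11.8 ± 0.998 for tumor tTreg and was lower (-0.26, adjusted p = 0.0138). Of the membrane-type MMPs, Mmp14 (MT1-MMP), the activator of pro-MMP2, read 221, 216 and 214 against 279, 268, 276, 262 and 256 CPM. All tumor tTreg libraries lay above (-0.30, adjusted p = 1.85e-09). Mmp15 (MT2-MMP) and Mmp24 (MT5-MMP) were lower as well (-0.48 and -0.59), Mmp15 not on the FPKM table (adjusted p = 0.194 by limma-trend on log2 of FPKM + 1). Mmp25 (MT6-MMP), a form anchored by a lipid and known from leukocytes, was the exception by CPM, at 6.44, 6.90 and 7.36 for tumor pTreg against 3.17, 3.39, 3.62, 2.79 and 4.03 for tumor tTreg. Every tumor pTreg library was higher by CPM (2.03-fold, adjusted p = 1.71e-08), whereas per 100 pan-T counts Mmp25 read 0.424 ± 0.0265 against 2.19 ± 0.298 (log2 fold change -2.36).

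Among the remaining Mmp genes Mmp28 (epilysin) was lower in tumor pTreg, at 11.9 ± 0.427 against 17.3 ± 0.601 CPM (-0.53, adjusted p = 5.44e-07), and so was the scarce Mmp23 (13 against 63 counts over the groups, -1.49). Mmp19, at 31.0 ± 1.31 and 31.1 ± 2.23 CPM, was not called (95% interval of the log2 fold change -0.11 to 0.11, adjusted p = 0.981). Mmp27 (1.11 and 1.06 CPM) and Mmp17 (17 and 13 counts) were not called either (adjusted p = 0.854 and 0.0967).

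All 3 tested TIMP genes were lower in tumor pTreg. Timp1, an inhibitor induced in wounds and inflammation, read 3.47, 3.34 and 3.82 CPM for tumor pTreg against 5.53, 6.12, 6.32, 6.90 and 6.90 for tumor tTreg. No values overlapped (log2 fold change -0.83, adjusted p = 5.35e-06). Timp2, which both inhibits MMPs and takes part in the activation of pro-MMP2 by Mmp14, read 271, 266 and 274 against 343, 328, 328, 337 and 323 CPM (-0.29, adjusted p = 1.15e-09). Timp3, the TIMP that stays bound to the matrix, read 87.2 ± 1.13 against 97.6 ± 2.53 CPM (-0.15, adjusted p = 0.000314). Timp4 had 5 counts over each tumor group and was not tested. By FPKM Mmp14 stood at 0.934 ± 0.0762 of Timp2 for tumor pTreg and 0.92 ± 0.0348 for tumor tTreg, with overlapping ranges. With log2 of FPKM + 0.1 Timp1 and Timp3 were not called (adjusted p = 0.113 and 0.166).

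Of the proteoglycan-cutting ADAMTS genes, Adamts5 (aggrecanase 2) had the widest gap of all members. Its counts were 3, 4 and 7 in the tumor pTreg libraries and 104, 89, 74, 75 and 84 in the tumor tTreg libraries. The groups lay 18.0-fold apart (log2 fold change -4.13, adjusted p = 1.35e-12). Adamts1, a relative that cuts versican, read 27.0, 30.3 and 26.9 against 46.4, 43.8, 42.2, 39.9 and 43.4 CPM, without overlap (-0.61, adjusted p = 1.69e-10). Adamts4 (aggrecanase 1) and Adamts15 were lower too (-0.53 and -1.33), and Adamts9 (42 and 40 counts) was not called (0.82, adjusted p = 0.0864).

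The procollagen proteases remove the amino-terminal propeptide of fibrillar collagens. Adamts2 read 1.38, 1.61 and 1.22 CPM against 6.08, 5.52, 5.24, 5.64 and 6.07 and was 4.07-fold lower in tumor pTreg (adjusted p = 9.76e-12), while Adamts14 overlapped (4.52 ± 0.434 against 3.90 ± 0.755 CPM, adjusted p = 0.205). Without tumor tTreg replicate 5, its highest library, Adamts14 was called higher by CPM (adjusted p = 0.0446). Adamts7 and Adamts12, which cut cartilage oligomeric matrix protein, were both lower (-0.67 and -1.78). The largest differences among the Adamts genes thus were in Adamts5, Adamts2 and Adamts12. Adamts17 (0.755 ± 0.19 against 1.14 ± 0.236 CPM) was not called (adjusted p = 0.0804), but it was without tumor tTreg replicate 2 (0.0382).

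Against LN Treg most tested members were higher in both tumor groups, where Mmp13, Mmp12 and Mmp9 had the highest Mmp levels by FPKM. Both tumor groups were compared with the same 4 LN Treg libraries, so the 2 comparisons are not independent. In tumor pTreg 27 of 34 tested members were higher (79.4%, against 47.6% of all genes) and 5 lower (14.7% against 39.8%), with 87.5% of all genes called. In tumor tTreg 28 were higher (82.4% against 48.1%) and 5 lower (14.7% against 42.3%), with 90.3% of all genes called. The median log2 fold change was 5.18 for tumor pTreg and 6.29 for tumor tTreg, or 4.67 and 5.81 with genes of 3 or fewer LN counts set to the bound of 3 counts, while all genes had medians of 0.12 and 0.10. Per pan-T count, where the median of all genes lies at 2.05 and 5.43, 31 were higher and 2 lower in tumor pTreg (89.8% and 5.18% of all genes), and 33 higher and 0 lower in tumor tTreg (96.6% and 1.19%, 97.7% called). The macrophage, hepatocyte and fibroblast sums given above were higher in both tumor groups than in LN Treg, and their part was not tested.

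Mmp13 had 1, 2, 1 and 1 counts in the 4 LN Treg libraries, against 693, 751 and 743 CPM in tumor pTreg. The difference was 9350-fold in tumor pTreg (log2 fold change 13.20, adjusted p = 2.49e-37) and 11500-fold in tumor tTreg. With 5 counts in LN Treg the size of this difference is uncertain. Mmp12 had 5, 2, 6 and 3 counts in LN Treg and was 1370-fold higher for tumor pTreg and 1500-fold for tumor tTreg. Mmp9 was detectable in every LN Treg library, at 2.18, 2.47, 2.31 and 3.14 CPM, and was 164-fold higher in tumor pTreg (adjusted p = 9.71e-36) and 162-fold in tumor tTreg. Mmp14 read 7.41, 6.93, 6.23 and 7.03 CPM in LN Treg and was 31.4-fold and 38.9-fold higher, and Mmp15 (2.35 ± 0.458 CPM) 21.3-fold and 30.0-fold. No tumor library overlapped an LN Treg library in any of these.

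Other members were at the edge of detection in LN Treg. Mmp7, Mmp27, Adamts5 and Adamts12 had 0 counts in all 4 libraries. Against the floor of 3 counts over the group Mmp7 was at least 216-fold higher for tumor pTreg and at least 259-fold for tumor tTreg, and Mmp27, one of the less studied MMPs, at least 24.4-fold and 23.4-fold. Adamts5 was at least 5.69-fold and 103-fold higher, the first of these not called by limma-trend on log2 of FPKM + 1 (adjusted p = 0.439), and Adamts12 at least 12.2-fold and 42.4-fold. Adamts1 had 2 counts over LN Treg, and its count ratio to tumor pTreg was 928 (95% interval 256 to 7670.0). Mmp2 (7 counts in LN Treg) was 582-fold and 817-fold higher, Mmp19 (13 counts) 158-fold in both tumor groups, Adamts7 (8 counts) 197-fold and 315-fold and Timp3 (8 counts) 734-fold and 821-fold. Intervals and floors cover counting error only.

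Mmp8 (5 counts in LN Treg) was 70.3-fold higher for tumor pTreg and 53.6-fold for tumor tTreg, Mmp10 (5 counts) 18.0-fold and 6.31-fold, and Mmp24 (6 counts) 47.6-fold and 71.9-fold. For genes with 1 to 3 LN Treg counts the count ratio of tumor pTreg over LN Treg was 263 (95% interval 89.6 to 1280.0) for Mmp28, 301 (95% interval 82.8 to 2490.0) for Adamts4, 92.7 (95% interval 16.1 to 3710.0) for Adamts2, 39.6 (95% interval 10.5 to 334) for Adamts15 and 25.6 (95% interval 4.12 to 1060.0) for Mmp3. The ratio of Mmp3 in tumor tTreg was 395 (95% interval 70.7 to 15600.0), an interval too wide to give its size. Adamts9 was 8.83-fold and 4.98-fold higher. Adamts17 was called higher in tumor tTreg (2.17-fold, adjusted p = 0.00024, though not on the FPKM table) and not in tumor pTreg (adjusted p = 0.0884), where it was called without tumor pTreg replicate 2 (0.0441). Mmp23 was called higher in tumor tTreg (adjusted p = 0.0134) and was not called in tumor pTreg (0.305).

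Several members share bases with another gene, and reads of overlapping genes may have been split by the counting. Tbc1d2b, on the other strand from Adamts7, read 135, 153 and 143 CPM in LN Treg, tumor pTreg and tumor tTreg. Tmem198b at Mmp19 read 9.95, 14.5 and 16.7 CPM and BC029722 at Mmp24 22.6, 19.6 and 18.8. Beside those levels in LN Treg, Adamts7 read 0.122 CPM, Mmp19 0.197 and Mmp24 0.0903. The part of overlapping genes in the values of Adamts7, Mmp11, Mmp19 and Mmp24 was not tested.

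Timp2 was the inhibitor that LN Treg already had. It read 52.0, 49.3, 48.8 and 47.9 CPM there, with little spread, and held 98.8 ± 1.08% of the Timp FPKM. In tumor pTreg it was 5.46-fold higher (log2 fold change 2.55, adjusted p = 4.48e-31) and in tumor tTreg 6.70-fold, the smallest ratios among the called Timp genes. Timp1, with 2, 1, 0 and 4 counts in LN Treg, was 33.8-fold and 60.7-fold higher.

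Mmp25 was the membrane-type gene with similar levels in LN Treg and tumor tTreg, at 4.06, 3.57, 3.41 and 3.83 CPM in LN Treg. Tumor tTreg overlapped that range (3.4 ± 0.465 CPM, adjusted p = 0.805), while tumor pTreg was 1.86-fold higher (adjusted p = 1.89e-08). Per pan-T count both tumor groups were higher (2.93 and 5.29). Adamts14, with 0.885 ± 0.224 CPM in LN Treg, was 5.10-fold higher for tumor pTreg and 4.40-fold for tumor tTreg.

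Which members were highest in LN Treg? Adamts6 and Adamts10, close relatives that bind fibrillin microfibrils, made up 49.5 ± 1.47% and 49.7 ± 1.48% of the LN Treg Adamts counts. Adamts6 (chromosome 13, 104287835 to 104496695) read 205, 197, 192 and 202 CPM in LN Treg, 16.6, 16.7 and 15.6 for tumor pTreg and 9.52, 8.09, 9.35, 9.15 and 8.89 for tumor tTreg. The 3 groups did not overlap, and the level was 12.2-fold lower in tumor pTreg (log2 fold change -3.51, adjusted p = 1.64e-31) and 22.1-fold lower in tumor tTreg (-4.37). Per 100 pan-T counts it read 2.98 ± 0.115, 1.00 ± 0.0369 and 5.78 ± 0.36, so it stayed lower in tumor pTreg (-1.57) but was higher in tumor tTreg (0.96). Between the tumor groups Adamts6 by CPM was 1.81-fold higher in tumor pTreg (adjusted p = 7.09e-12) and lower per pan-T count (-2.53).

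Adamts10 (chromosome 17, 33524204 to 33553782) read 203, 193, 209.8 and 194 CPM in LN Treg, 80.0, 84.9 and 77.8 for tumor pTreg and 74.0, 70.4, 73.3, 69.5 and 70.8 for tumor tTreg. By CPM it was 2.47-fold lower for tumor pTreg and 2.79-fold lower for tumor tTreg than in LN Treg, and per pan-T count higher in both (0.74 and 3.94). Its difference between the tumor groups was small by CPM (1.13-fold higher in tumor pTreg, adjusted p = 0.000165) and turned per pan-T count (-3.21). Levels of these relatives were alike in LN Treg by CPM and unlike by length, at 65.0 ± 3.15 FPKM for Adamts10 and 33.7 ± 1.07 for Adamts6.

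Mmp11 was the MMP gene with its highest CPM in LN Treg among those above 1 CPM, at 8.12, 6.86, 8.89 and 6.33 there, 3.19, 4.56 and 3.82 for tumor pTreg and 5.36, 4.21, 5.83, 5.37 and 4.86 for tumor tTreg. It was lower in both tumor groups by CPM (-0.87 and -0.46, adjusted p = 1.88e-06 and 0.000458) and higher in both per pan-T count (1.07 and 4.86). Chchd10, which overlaps it on the other strand, read 15.3, 4.89 and 5.88 CPM in LN Treg, tumor pTreg and tumor tTreg. Mmp17 (MT4-MMP, 63 LN Treg counts) and Adamts20 (60 counts) were also lower in both tumor groups by CPM. Per pan-T count Mmp17 was not called in tumor pTreg (0.44, adjusted p = 0.344) and was higher in tumor tTreg (2.66). Adamts20 had 1 count for tumor pTreg and 2 for tumor tTreg, with count ratios of LN Treg over tumor of 49.2 (95% interval 8.50 to 1980.0) and 41.5 (95% interval 11 to 351). Per pan-T count it was also lower in tumor pTreg (-3.29) and not called in tumor tTreg on that scale (0.05, adjusted p = 0.962).

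**Figure D5:**
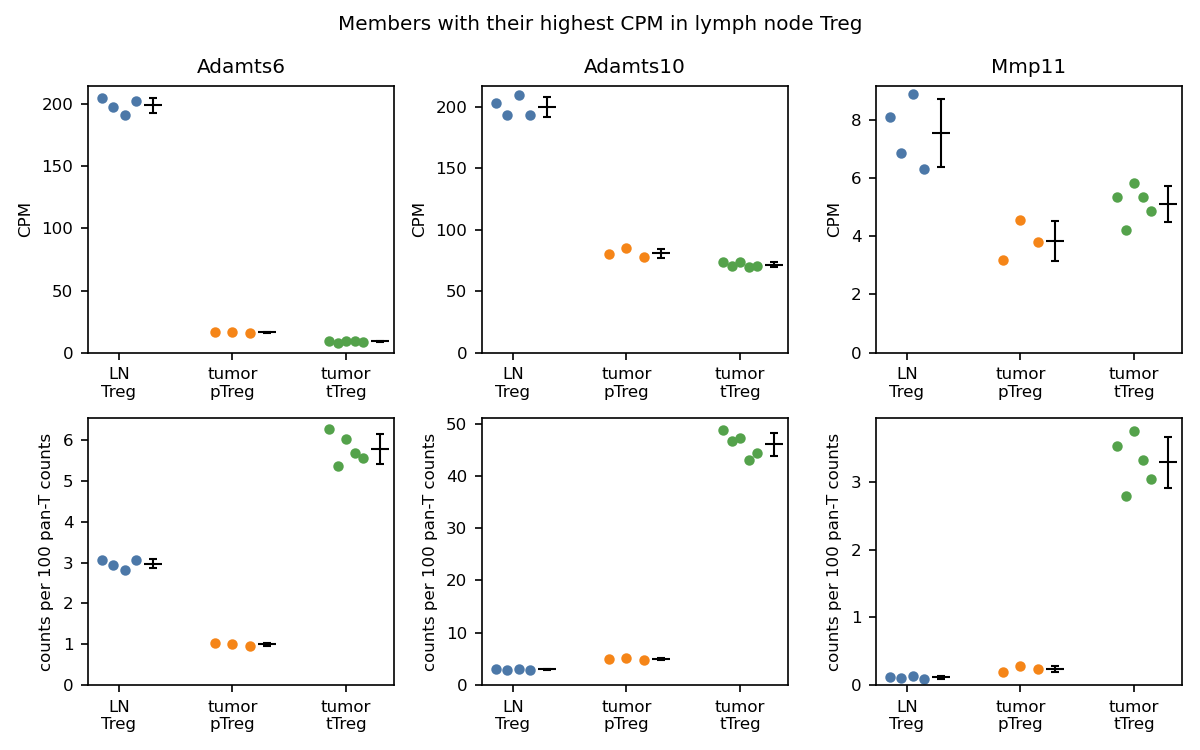
Adamts6, Adamts10 and Mmp11 by library in CPM (upper row) and per 100 pan-T counts (lower row), with means and SD as bars beside the points. By CPM LN Treg is highest for all 3, and per pan-T count tumor tTreg is highest for all 3.

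Of the 16 members below 1 CPM in every group 12 were not tested. Mmp1b, Mmp16 and Mmp20 had no count. Mmp1a, Mmp21, Timp4, Adamts3, Adamts8, Adamts13, Adamts16, Adamts18 and Adamts19 had 0 to 18 counts over a group, the most being the 18 of Adamts3, a procollagen protease, in LN Treg, against 0 for tumor pTreg and 1 for tumor tTreg. The blood protease Adamts13, which cuts von Willebrand factor, had 5 counts in tumor tTreg and 0 elsewhere.

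Genes that act with the members were counted from lists of activators, inhibitors, relatives and substrates, with directions by CPM. Per pan-T count all tested genes of the 5 lists (14, 7, 6, 11 and 12) were below tumor tTreg in tumor pTreg, so those named as higher below turn on that scale. The shares of all genes to set beside these counts are 26.8% higher and 25.3% lower by CPM between the tumor groups, and on the pan-T scale 97.2% lower. Against LN Treg they are 47.6% higher and 39.8% lower with tumor pTreg, and 48.1% and 42.3% with tumor tTreg. Of 16 activators and surface partners 14 were tested; by CPM tumor pTreg exceeded tumor tTreg for 4 and was lower for 7 (median log2 fold change -0.10). Plau, the urokinase that generates plasmin and so activates MMPs, read 0.327 ± 0.19 CPM in LN Treg, 599.8 ± 21.8 for tumor pTreg and 809 ± 25 for tumor tTreg and was the lower of the tumor groups in tumor pTreg (-0.42, adjusted p = 2.3e-11). Bsg, an inducer of MMP expression, was lower too (-0.39), and Ctsb, the lysosomal cathepsin B, was not called (2562 ± 46.6 against 2598 ± 96.9 CPM, adjusted p = 0.764). Against LN Treg 13 of the 14 were higher and 1, the integrin gene Itgb3, was lower in each tumor group by CPM and higher in each per pan-T count (0.65 and 0.99; Itgb3 was chosen after its values were seen).

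Of 10 other protease inhibitors 7 were tested, with 1 higher and 5 lower when tumor pTreg was set against tumor tTreg (median -0.45), and 6 were higher and 1 lower than in LN Treg in each tumor group. The lower one was Reck, a membrane-anchored MMP inhibitor, at 9.03 ± 0.527 CPM in LN Treg, 1.38 ± 0.335 for tumor pTreg and 0.907 ± 0.21 for tumor tTreg (log2 fold change -2.59 and -3.21), and per pan-T count it was lower in tumor pTreg (-0.66) and higher in tumor tTreg (2.11). By CPM Reck was also the 1 that was higher in tumor pTreg than in tumor tTreg (0.61, adjusted p = 0.0262, but -2.77 per pan-T count). Pcolce, an enhancer of procollagen processing whose main known role is not inhibition, read 225 ± 10.3 CPM for tumor pTreg against 331 ± 7.58 for tumor tTreg (-0.55).

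The 6 tested ADAMTS-like genes, which lack a protease domain, were lower in 4 cases and higher in 0 (median -0.43), with Thsd4 at -0.50, Papln at -0.44 and Adamtsl4 not called (adjusted p = 0.281). The 11 tested ADAM family genes split into 3 higher, 3 lower and 5 not called (median 0.027). By CPM Adam19 was higher in tumor pTreg (150.1 ± 6.10 against 47.8 ± 1.37, 1.66) and lower per pan-T count (-1.73), Adam10 was not called (193 ± 4.54 against 190.1 ± 5.59, adjusted p = 0.497), and Adamdec1, a protease of macrophages, was lower (-0.16). Against LN Treg 5 of the 6 ADAMTS-like genes were higher and 1 lower in each tumor group, and of the 11 ADAM genes 7 were higher and 2 lower for tumor pTreg and 8 and 2 for tumor tTreg, all by CPM. Per pan-T count all 11 ADAM genes were higher than LN Treg in both tumor groups, and of the ADAMTS-like genes 5 were higher and 1 lower with tumor pTreg and 5 higher and 0 lower with tumor tTreg.

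Of 12 tested substrates 8 were lower and 0 higher in tumor pTreg against tumor tTreg (median -0.53), and all 12 were higher than in LN Treg in both tumor groups. Col3a1, a fibrillar collagen, read 22.3 ± 4.08 against 312 ± 22.9 CPM (-3.80), Dcn (decorin) 83.9 ± 7.30 against 157 ± 4.79 (-0.89) and Fn1 (fibronectin) 3361 ± 5.15 against 4088 ± 195 (-0.27).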

How the data were processed

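Total RNA was extracted from sorted cells with TRIzol and sequenced on a BGISEQ-500, per the labels' protocols. The authors deposited expected counts and FPKM per gene for 12 libraries. STAR 2.7.11a, RSEM 1.3.3 and DESeq2 with GRCm38 (mm10) are named in the submitters' processing notes, while the gene annotation and strand setting are not given in the sources used here. Deposited expected counts were rounded to whole numbers. Genes were kept with edgeR's filterByExpr, scaled by TMM and fitted with the quasi-likelihood model over all 3 groups (edgeR 4.0.16, R 4.3.3), and p-values were adjusted over 15705 genes by Benjamini-Hochberg. Called means an adjusted p below 0.05. CPM are of library totals, and FPKM are the authors' deposited values. The model was tested on simulated data. The members, marker lists and pathway lists were chosen with earlier results of these data known. All members of at least 1 CPM and the 3 highest genes of each pathway list were named, except that some results are not reported here. Alternatives were other scalings (pan-T counts, DESeq2's size factors, library totals), filters, DESeq2 1.42.0, limma 3.58.1 (voom, and FPKM with pseudocounts of 1 and 0.1), a replicate block, the compared groups only and leaving out each library. Of the 46 symbols 32 matched a RefSeq promoter (GRCm38.p6). Not matched were Adamts4, Adamts5, Adamts6, Adamts7, Adamts8, Adamts10, Adamts15, Adamts16, Adamts19, Mmp2, Mmp9, Mmp16, Mmp17 and Mmp19.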

Additional observations from a re-analysis of the deposited data

Results flagged for a closer look

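Of 37 sets of 4 or 5 libraries tested for a value far from the rest, 2 held one (5.41%), and chance gives about 1 in 20. Tumor tTreg replicate 3 read 839 CPM of Mmp13, below the 898 to 919 of the other 4 libraries. Tumor tTreg replicate 2 read 18.3 CPM of Mmp28, above the 16.8 to 17.2 of the other 4.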

How the results depend on the processing

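Scaling to pan-T counts and a stricter filter changed the counts of members by over 1.5 times. Between the tumor groups it left 0 higher and 34 lower in tumor pTreg, and it left 2 lower members in tumor pTreg and 0 in tumor tTreg against LN Treg. Among the 30 members of at least 1 CPM signs reversed on that scale between the tumor groups for Adamts6 (-2.53), Adamts10 (-3.21), Adamts14 (-3.17), Mmp8 (-2.99), Mmp9 (-3.36), Mmp10 (-1.87), Mmp19 (-3.39), Mmp25 (-2.36) and Mmp27 (-3.32), in tumor pTreg against LN Treg for Adamts10 (0.74) and Mmp11 (1.07), and in tumor tTreg for Adamts6 (0.96), Adamts10 (3.94), Mmp11 (4.86) and Mmp25 (5.29). Below 1 CPM Adamts9 (-2.55) and Mmp17 (-2.23) also reversed between the tumor groups. Against LN Treg the sign turned for Mmp23 (1.34) and Mmp17 (0.44) in tumor pTreg, and for Mmp17 (2.66) and Adamts20 (0.05) in tumor tTreg. Of these, Mmp17 in tumor pTreg and Adamts20 in tumor tTreg were not called on the pan-T scale. The shift follows from the divisor. A filter at a mean of 5 CPM, which left 17 members, gave 2 higher and 13 lower between the tumor groups, and 14 higher and 3 lower in each comparison with LN Treg. With log2 of FPKM + 1, 3 members were lower in tumor pTreg than in LN Treg. The cause was not tested. Leaving out 1 library gave 5 to 6 higher and 20 to 22 lower members between the tumor groups, and 27 to 28 higher and 5 lower in each comparison with LN Treg.

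Replicate numbers are shared between groups, but the labels do not say that they pair samples, and same-numbered libraries did not deviate together (correlations from -0.050 to 0.053 over 9621 genes). With the replicate number as a block 5 members were higher and 20 lower between the tumor groups, and 27 higher and 5 lower in each comparison with LN Treg. Mmp7 was then not called between the tumor groups (log2 fold change -0.18, adjusted p = 0.139 by edgeR). Each library best matched its own number in 0 of 3, 0 of 3 and 1 of 4 cases. Depth limits the genes with 5 or fewer counts in LN Treg, whose fold changes have wide intervals.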
